A study of Mus musculus with 6 samples.

Results

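The genes described here encode the receptors, transporters and postsynaptic partners of the inhibitory transmitters GABA and glycine. They are 26 genes chosen by symbol for their role. This choice, like that of the pathway and marker lists below, was made with earlier results of these data known. All 26 were found among the 53379 genes in the count table. They comprise 14 GABA-A receptor subunits, 2 GABA-B receptor subunits, 4 glycine receptor subunits, 2 chloride cotransporters, 2 GABA transporters and 2 genes of the postsynaptic scaffold. Expression was measured by bulk RNA sequencing of total RNA from the cortex of C57BL/6 mice at postnatal day 0. There were 3 libraries from Npas3+/- mice, which carry a single intact copy of the transcription factor gene Npas3, and 3 from wild-type (WT) mice. The kind of Npas3 allele, the sex and litter of the animals, and whether a library came from 1 animal or several are not stated in the labels. The p-values therefore cover the variation among these libraries, which may be partly technical.

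GABA opens chloride channels built from subunits of the GABA-A receptor, and glycine opens chloride channels of the same pentameric family. Whether such a channel depolarizes or hyperpolarizes a neuron depends on the chloride gradient, which in young neurons is set largely by the importer NKCC1 (Slc12a2) and in mature neurons by the exporter KCC2 (Slc12a5). GABA-B receptors are G protein-coupled and act through potassium and calcium channels. In the cortex, subunit use shifts around birth and afterwards, and receptors are held at synapses by gephyrin and neuroligin.

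Total counts ran from 67378231 to 87811574 per library, and the biological coefficient of variation was 26.1%. Levels are given as CPM, counts divided by the TMM-scaled library size. Npas3 stood at 12.6 ± 3.45 CPM in Npas3+/- and 25.8 ± 2.53 CPM in WT (SD, n = 3), with no overlap. Its log2 fold change was -1.04, with an adjusted p of 0.270 in edgeR and 7.48e-05 in DESeq2. Markers of excitatory cortical neurons summed to 2725 to 3590 CPM in Npas3+/- libraries and 2714 to 2947 CPM in WT. The 18 markers of thalamus, hypothalamus, midbrain, hindbrain and cerebellum summed to 69.0 to 78.5 CPM in Npas3+/- and 78.7 to 91.0 CPM in WT, without overlap. Of the 8 that were tested, 6 were lower in Npas3+/- (median log2 fold change -0.21). The most abundant were Pax6, Prox1, Rora and Zic1. They stood at 19.9, 20.8, 14.2 and 13.6 CPM in Npas3+/- and 25.1, 22.5, 17.4 and 15.0 CPM in WT. Of these only Pax6 did not overlap. Every other marker of the list averaged 2.71 CPM or less in both groups, and Tcf7l2 stood at 2.71 against 2.70 CPM. The hindbrain genes Hoxb3 and Hoxb5 had 0 counts in all 6 libraries. The part of these markers in the results was not tested. In bulk tissue, fewer cells of a type and less RNA per cell cannot be told apart.

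The promoter sequences of 5 members are shown because they span the range of levels described below, from the most abundant member per kilobase to the member with no counts, and include Gabrg3 and Nlgn2, the members with the smallest p-values. RefSeq windows of 300 bases on GRCm38.p6, 250 before and 50 after the start site, were matched for 23 members. Where a gene had several windows, only the one nearest its annotated start was read. Gabra3, Gabrb1 and Slc12a5 had 2 windows and Gabrb2 had 3. Capitals mark CpG dinucleotides. The windows are chr11:69837735-69838034 (minus strand) for Nlgn2, chr7:57387166-57387465 (minus) for Gabrg3, chr2:164960596-164960895 (plus) for Slc12a5, chrX:72656758-72657057 (minus) for Gabra3 and chr11:42321023-42321322 (minus) for Gabra6.
Nlgn2: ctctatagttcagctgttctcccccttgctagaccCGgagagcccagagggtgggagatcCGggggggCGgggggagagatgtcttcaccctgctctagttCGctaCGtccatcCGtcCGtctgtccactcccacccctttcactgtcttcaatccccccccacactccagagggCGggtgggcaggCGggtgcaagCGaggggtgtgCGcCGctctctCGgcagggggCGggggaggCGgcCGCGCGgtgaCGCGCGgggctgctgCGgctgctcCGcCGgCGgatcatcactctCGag
Gabrg3: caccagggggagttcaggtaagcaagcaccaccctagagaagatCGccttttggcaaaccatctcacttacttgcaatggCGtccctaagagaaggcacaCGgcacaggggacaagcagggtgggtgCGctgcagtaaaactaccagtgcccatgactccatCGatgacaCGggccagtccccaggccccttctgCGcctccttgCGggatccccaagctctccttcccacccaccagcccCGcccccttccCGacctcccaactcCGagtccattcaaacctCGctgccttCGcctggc
Slc12a5: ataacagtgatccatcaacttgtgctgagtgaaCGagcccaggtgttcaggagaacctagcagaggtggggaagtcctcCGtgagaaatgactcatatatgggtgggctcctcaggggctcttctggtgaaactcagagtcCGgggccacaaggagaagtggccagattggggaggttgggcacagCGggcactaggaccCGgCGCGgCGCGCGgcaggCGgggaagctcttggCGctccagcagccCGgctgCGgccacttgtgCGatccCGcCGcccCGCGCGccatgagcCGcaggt
Gabra3: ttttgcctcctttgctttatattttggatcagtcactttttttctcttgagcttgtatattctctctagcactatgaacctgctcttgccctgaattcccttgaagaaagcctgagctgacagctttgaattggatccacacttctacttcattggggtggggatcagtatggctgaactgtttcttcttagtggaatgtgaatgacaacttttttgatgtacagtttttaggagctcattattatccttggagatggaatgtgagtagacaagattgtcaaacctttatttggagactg
Gabra6: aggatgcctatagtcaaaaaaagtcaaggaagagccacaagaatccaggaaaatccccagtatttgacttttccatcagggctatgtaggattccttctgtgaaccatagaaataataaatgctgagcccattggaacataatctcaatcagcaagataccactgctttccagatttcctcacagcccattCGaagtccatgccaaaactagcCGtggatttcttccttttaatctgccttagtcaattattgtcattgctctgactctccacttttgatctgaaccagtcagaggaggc

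Most of these promoters were rich in CpG. The median over 23 members was 17 CpG per window, against 7 over all 32851 RefSeq windows, where a gene can have several. Nlgn2, shown above, held 26, Slc12a5 held 21 and Gabrg3 held 13. The number of CpG did not order the members by level. The 17 members at 1 CPM per kilobase or more in WT had a median of 18 CpG and a range from 0 to 46, and the 6 members below that level had a median of 8.5 and a range from 2 to 24. Gabra3, second to Gabra5 among the alpha subunits in level, had 0 CpG in the 1 of its 2 windows that was read, whereas the nearly silent Gabre and Gabrq had 24 and 23. The letters ACGTG, the core bound by several bHLH-PAS dimers, were searched on both strands. They occurred in the windows of Gabrb1, Gabre and Glra2, 13.0% of the 23 members, against 19.6% of all windows, and in none of the windows printed above. The absence of these letters says only that they are not in this window.

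The genotype comparison asked whether transcripts of inhibitory receptors and transporters differ in Npas3+/- cortex. Of the 26 members, 23 passed the filter on low counts and were tested. None passed the threshold of an adjusted p of 0.05 in edgeR's quasi-likelihood test over all 21244 genes tested, of which 8 (0.0377%) passed. DESeq2 also called 0 members, against 3.03% of the genes it tested. Npas3 itself passed in DESeq2 but not in edgeR, so a gene that edgeR did not call can still differ. At an unadjusted p under 0.05 there were 3 members, Nlgn2, Gabrg3 and Gabrb1, 13.0% of those tested, against 12.1% of all genes. The median log2 fold change of Npas3+/- over WT was -0.06 among the members tested and -0.01 among all genes, with 15 members lower and 8 higher. Without WT replicate 2, the library in which 12 of the 23 members were highest, the median was 0.02.

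**Figure D1:**
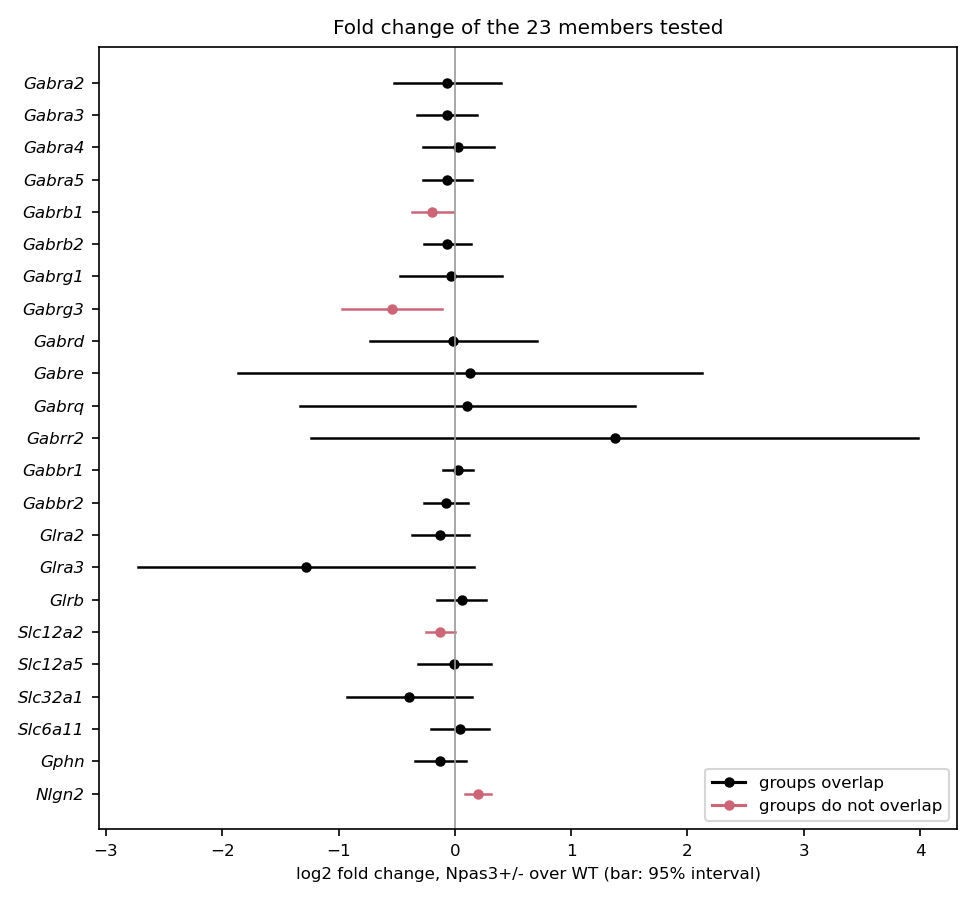
Log2 fold change of Npas3+/- over WT for the 23 members tested (points), with the 95% interval from edgeR (bars). Red marks the 4 members whose groups did not overlap, and the widest intervals belong to Gabre, Gabrq, Gabrr2 and Glra3, which have few counts.

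For 18 of the 23 members the log2 fold change lay within 0.2 of 0, and for 15 the 95% interval lay within 0.5, which is a 1.41-fold difference in either direction. Wider intervals were not limited to genes with few counts: those of Gabra2, Gabrg3 and Slc32a1, all above 15 CPM in every library, also reached beyond 0.5. In 4 members the groups did not overlap. Nlgn2 was higher in all 3 Npas3+/- libraries, as were 9.7% of all genes tested. Gabrb1, Gabrg3 and Slc12a2 were lower in all 3, as were 9.18% of all genes.

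**Figure D2:**
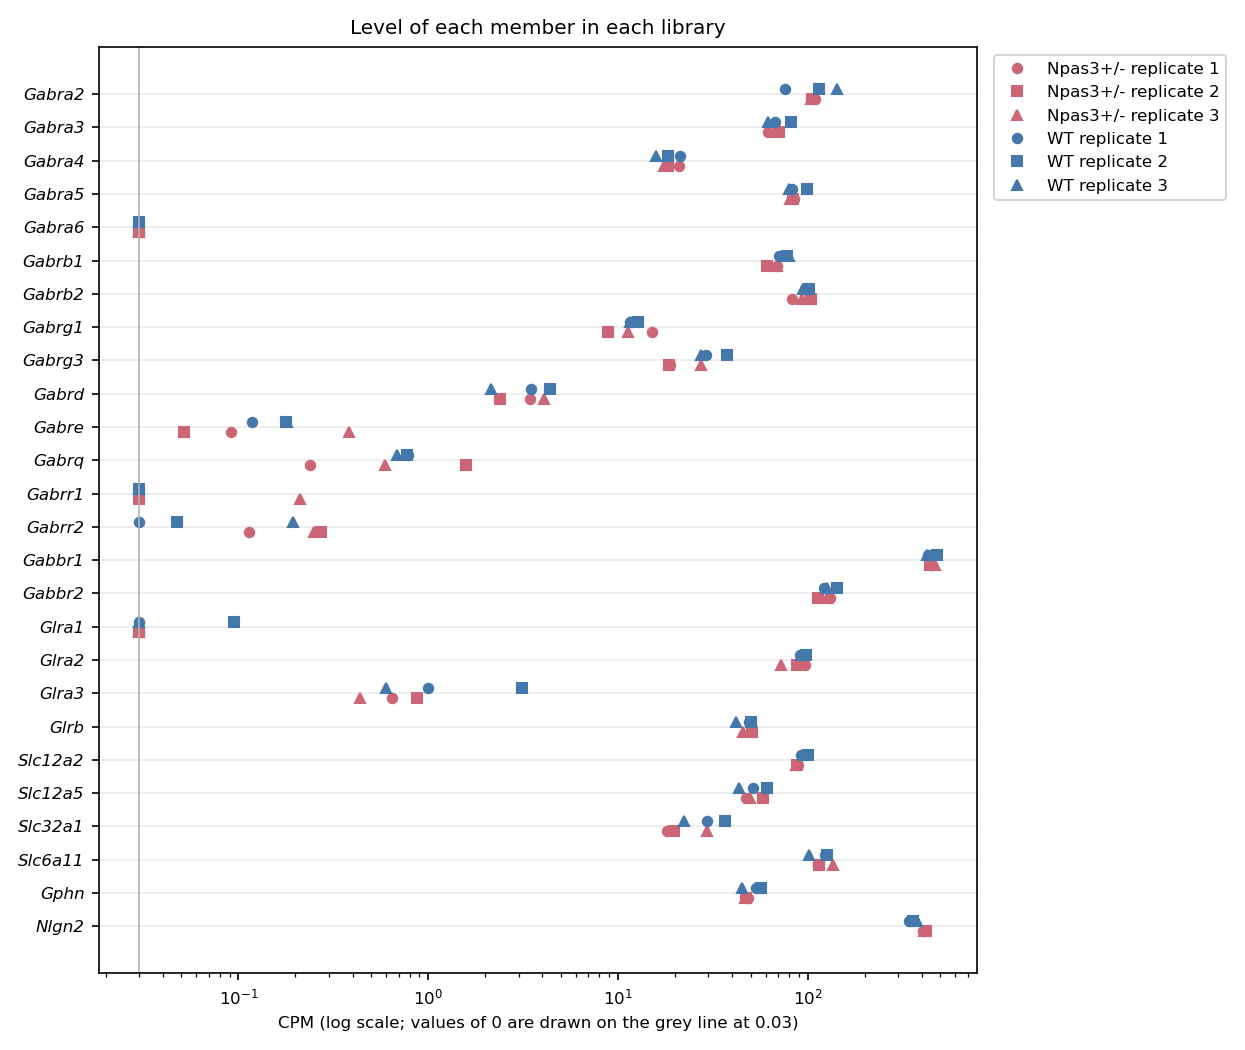
Level of each of the 26 members in each library, in CPM on a log axis. Blue is WT, red is Npas3+/-, and marker shape gives the replicate number; values of 0 are drawn on the grey line. Levels spread from 0 counts for Gabra6 to 479 CPM for Gabbr1.

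Among the alpha subunits analysed here, which help form the GABA binding site and set much of a receptor's pharmacology, Gabra5 had the highest level per kilobase of exon. It stood at 29.3 ± 3.54 CPM per kilobase in WT, followed by Gabra3 at 17.9 ± 2.61, Gabra2 at 14.5 ± 4.37 and Gabra4 at 3.05 ± 0.435 (SD, n = 3). Gabra3 and Gabra2 did not differ beyond their spread. These values divide by the length of all annotated exons, so they depend on which isoforms are used. Of the summed level of these genes, Gabra5 held 45.3% ± 3.04 in WT and 45.1% ± 0.899 in Npas3+/-, and Gabra3 held 27.6% ± 2.51 and 27.5% ± 1.93.

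Gabra5, the subunit of many extrasynaptic receptors in pyramidal neurons, was measured at 85.2, 84.1 and 80.3 CPM in Npas3+/- replicates 1 to 3 and at 82.9, 99.0 and 79.3 CPM in WT. The Npas3+/- values lay inside the WT range (log2 fold change -0.07, SE 0.09, adjusted p = 0.82). Gabra3, a subunit of immature cortical receptors, gave 61.5, 70.9 and 68.1 CPM against 66.99, 81.5 and 61.7 CPM (log2 fold change -0.07, SE 0.11). Both genes were highest in WT replicate 2.

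Gabra2, a synaptic alpha subunit abundant in forebrain, was the most uneven of the abundant members within WT. The WT replicates stood at 75.9, 114 and 142 CPM, a coefficient of variation of 30.1%, whereas the Npas3+/- replicates stood at 109, 105 and 104 CPM, with a coefficient of 2.82%. The log2 fold change was -0.06 (SE 0.20, adjusted p = 0.936). It was 0.16 without WT replicate 3, -0.27 without WT replicate 1 and 0.03 with fold changes corrected for GC content. Gabra4, found mainly in extrasynaptic receptors with delta, was at 21.0, 18.3 and 17.5 CPM in Npas3+/- and at 21.3, 18.4 and 16.0 CPM in WT, again overlapping. Gabra6, a subunit of cerebellar granule cells, had 0 counts in every library, which allows at most 0.0341 to 0.0443 CPM per library (3 counts, counting error only).

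Of the beta subunits, required for assembly and trafficking of the receptor, Gabrb1 was lower in Npas3+/- cortex without overlap. Its levels were 68.9, 61.4 and 68.9 CPM in Npas3+/- and 70.6, 77.4 and 79.8 CPM in WT. The highest Npas3+/- value was below the lowest WT value by less than the SD within either group (4.33 CPM in Npas3+/- and 4.77 CPM in WT). The log2 fold change was -0.19 (SE 0.08, 95% interval -0.37 to -0.01) and did not pass over all genes (adjusted p = 0.377 in edgeR, 0.303 in DESeq2). With the GC correction it was -0.12. Gabrb2, the partner of many mature synaptic receptors, was more abundant per kilobase than Gabrb1 (15.4 ± 0.517 against 5.49 ± 0.344 CPM per kilobase in WT). It stood at 82.7, 104 and 93.5 CPM in Npas3+/- and 97.0, 101 and 94.7 CPM in WT, with the Npas3+/- libraries the more spread.

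The gamma subunits include the largest difference among members above 10 CPM. Gabrg3, a less common gamma subunit, was measured at 18.7, 18.5 and 27.3 CPM in Npas3+/- and at 29.0, 37.5 and 27.5 CPM in WT. Npas3+/- replicate 3 and WT replicate 3 were nearly equal, and replicates 1 and 2 of the genotypes stood further apart. Its means were 21.5 ± 5.01 and 31.3 ± 5.38 CPM (SD, n = 3). The log2 fold change was -0.54 (SE 0.18, 95% interval -0.97 to -0.11), with an adjusted p of 0.332 in edgeR and 0.0635 in DESeq2. Gabrg1, a gamma subunit of the amygdala, striatum and some glia, was at 15.0, 8.84 and 11.3 CPM in Npas3+/- and 11.6, 12.7 and 11.7 CPM in WT (log2 fold change -0.03, SE 0.19). Here the Npas3+/- libraries lay on both sides of the WT range.

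The delta, epsilon and theta subunits were scarce. Gabrd, which makes tonic extrasynaptic receptors, had 304, 183 and 308 counts in Npas3+/- and 235, 367 and 154 in WT, or 3.31 ± 0.860 against 3.33 ± 1.12 CPM (log2 fold change -0.01, SE 0.31). Gabrq, found in hypothalamic and monoaminergic neurons, had 21, 122 and 45 counts in Npas3+/- and 53, 65 and 49 in WT. The highest value was in Npas3+/- replicate 2, the only library with abundant Xist (3667 CPM, against 2.02 CPM or less in the others), and Gabrq is X-linked. The part of Xist or sex in this value was not tested. Gabre, also X-linked and known from hypothalamus and brainstem, had 8, 4 and 29 counts against 8, 15 and 13, and was lowest in that library.

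Both rho subunits, which form the GABA receptors of the retina, were close to absent. Gabrr1 had 16 counts in Npas3+/- replicate 3 and 0 in the other 5 libraries. Gabrr2 had 10, 21 and 19 counts in Npas3+/- and 0, 4 and 14 in WT. At a mean of 0.213 ± 0.0864 against 0.0809 ± 0.102 CPM, its log2 fold change of 1.37 had an SE of 1.12 (adjusted p = 0.674), and the groups overlapped.

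The GABA-A subunit genes lie in clusters, which the choice of members did not use. Of the 14 GABA-A members, 13 fell into 5 clusters on mm10. Gabrg1, Gabra2, Gabra4 and Gabrb1 share chromosome 5 (70751047 to 72149037), Gabrg3 and Gabra5 chromosome 7 (56716465 to 57510059), Gabra6 and Gabrb2 chromosome 11 (42306437 to 42629028), Gabre, Gabra3 and Gabrq the X chromosome (72255999 to 72842602), and Gabrr2 and Gabrr1 chromosome 4 (33062999 to 33163588). Gabra4 and Gabrb1 start head to head, and their annotated spans overlap by 196 bases, of which 46 are exonic in both, so a few reads there could be counted for either gene. Neighbours differed widely in level and in fold change. In the chromosome 7 cluster Gabrg3 had a log2 fold change of -0.54 and Gabra5 one of -0.07, and in the chromosome 5 cluster the values ran from -0.19 for Gabrb1 to 0.03 for Gabra4. Gabra6 had 0 counts beside Gabrb2 at 97.6 ± 3.29 CPM in WT.

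**Figure D3:**
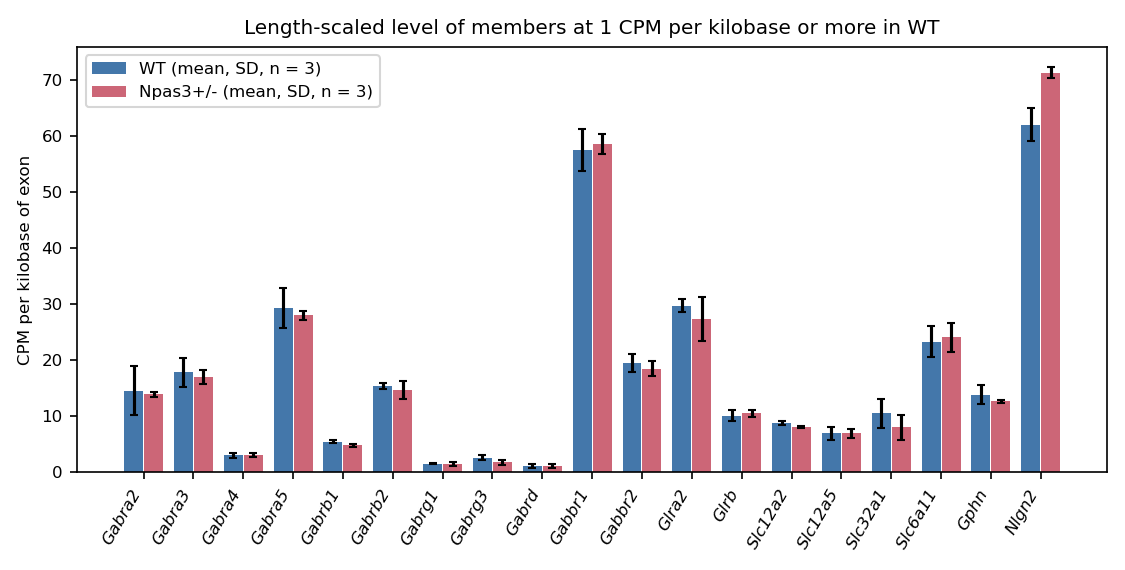
Level per kilobase of exon (CPM per kilobase) of the 19 members at 1 or more in WT, as mean and SD of 3 libraries, WT in blue and Npas3+/- in red. Nlgn2 and Gabbr1 are highest, and the genotypes lie within their SDs for most genes.

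GABA-B receptors are obligate pairs of a subunit that binds GABA (Gabbr1) and one that couples to G proteins (Gabbr2). Gabbr1 was among the most abundant members, at 451, 443 and 469 CPM in Npas3+/- and 432, 479 and 427 CPM in WT. The Npas3+/- values lay inside the WT range, and the log2 fold change was 0.03 (SE 0.06, 95% interval -0.11 to 0.16, adjusted p = 0.894). Gabbr2 was at 131, 113 and 126 CPM against 123, 142 and 126 CPM (log2 fold change -0.08, SE 0.08, adjusted p = 0.762). Per kilobase, Gabbr1 stood 2.95 ± 0.0709 times as high as Gabbr2 in WT and 3.18 ± 0.204 times in Npas3+/-, with overlapping values.

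The glycine receptor of immature neurons contains Glra2, and synaptic receptors add the beta subunit Glrb, which binds gephyrin. Glra2 was the most abundant glycine receptor member per kilobase, at 29.7 ± 1.14 in WT, about as high as Gabra5. Its levels were 97.2, 87.7 and 72.8 CPM in Npas3+/- and 91.0, 97.7 and 92.1 CPM in WT, with Npas3+/- replicate 3 lowest (log2 fold change -0.12, SE 0.10, adjusted p = 0.686). Without that library the log2 fold change was -0.01, and without Npas3+/- replicate 1 it was -0.22. Glrb was at 50.8, 50.8 and 45.8 CPM against 48.9, 50.3 and 42.0 CPM (log2 fold change 0.06, SE 0.09). The ratio of Glra2 to Glrb per kilobase was 2.83, 2.55 and 2.35 in Npas3+/- against 2.75, 2.87 and 3.24 in WT, and Npas3+/- replicate 1 lay inside the WT range.

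Glra3, a less common alpha subunit, was low and uneven. It had 57, 67 and 33 counts in Npas3+/- and 68, 264 and 43 in WT, or 0.652 ± 0.217 against 1.58 ± 1.37 CPM. Its log2 fold change of -1.28 (SE 0.62, adjusted p = 0.458) rested on WT replicate 2, without which it was -0.30. Glra1, the adult subunit of brainstem and spinal cord, had 8 counts in WT replicate 2 and 0 elsewhere.

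Of chloride transport only transcripts were measured, those of the importer Slc12a2 and the exporter Slc12a5. Slc12a2 stood at 89.3, 87.9 and 87.1 CPM in Npas3+/- and at 92.4, 99.9 and 95.6 CPM in WT. All 3 Npas3+/- values were below all 3 WT values, and the difference was small, with a log2 fold change of -0.12 (SE 0.05, 95% interval -0.25 to 0.004, adjusted p = 0.425 in edgeR). With the GC correction it was -0.08. Slc12a5 stood at 47.4, 58.2 and 49.8 CPM in Npas3+/- and 51.2, 61.0 and 43.6 CPM in WT, with a log2 fold change of -0.004 (SE 0.13, 95% interval -0.32 to 0.31).

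The ratio of exporter to importer transcripts was taken within each library from counts per kilobase, over all cells of the tissue together. It was 0.778, 0.972 and 0.839 in Npas3+/- and 0.813, 0.896 and 0.668 in WT, below 1 in all 6 libraries. On the log2 scale the means were -0.22 ± 0.16 in Npas3+/- and -0.35 ± 0.22 in WT (SD, n = 3). The difference of 0.13 was below either SD (exact two-sided permutation test, p = 0.5, where 3 against 3 libraries cannot give less than 0.1). Its size depended on single libraries: it was 0.01 without WT replicate 3, 0.04 without Npas3+/- replicate 2, 0.20 without Npas3+/- replicate 1 and 0.22 without WT replicate 2.

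**Figure D4:**
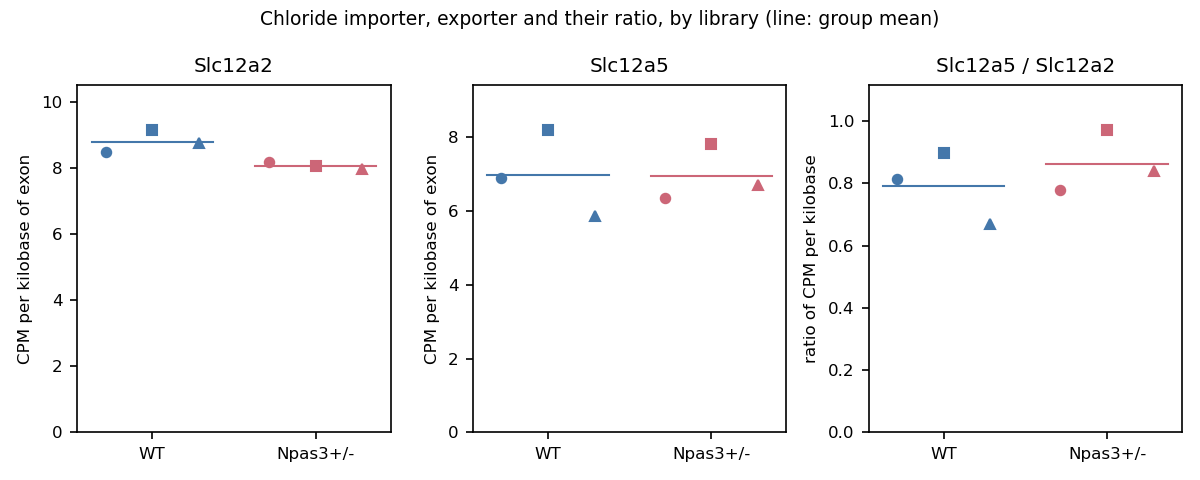
Slc12a2 and Slc12a5 in CPM per kilobase of exon and their ratio, for each library, with the group mean as a line; marker shape gives the replicate number. The Slc12a2 values of Npas3+/- sit below those of WT, and the Slc12a5 values and the ratios overlap.

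Slc32a1, the vesicular transporter that loads GABA and glycine into synaptic vesicles, marks inhibitory neurons. It was at 18.1, 19.7 and 29.4 CPM in Npas3+/- and 29.4, 36.6 and 22.3 CPM in WT. Npas3+/- replicate 3 lay within the WT range, and replicates 1 and 2 below it. The log2 fold change was -0.39 (SE 0.23, 95% interval -0.93 to 0.15) with an adjusted p of 0.551. Leaving out Npas3+/- replicate 3 gave -0.63, and leaving out WT replicate 2 gave -0.20. Slc32a1 shares 697 exonic bases with Gm14205 on the opposite strand, and the strand setting of the counting was not given. Slc6a11, the GABA uptake transporter found mainly in astrocytes, stood at 113, 115 and 137 CPM in Npas3+/- and 124, 127 and 102 CPM in WT (log2 fold change 0.05, SE 0.11, 95% interval -0.20 to 0.30). Its groups overlapped, and its direction turned to -0.04 without replicate 3 of either genotype.

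Markers of inhibitory neurons are set beside Gabrg3 and Slc32a1. The 17 interneuron markers, which include Gad2, summed to 714, 810 and 980 CPM in Npas3+/- and 981, 1120 and 970 CPM in WT, and 15 of the 17 had negative log2 fold changes (median -0.35). The 17 striatal projection neuron markers summed to 511, 534 and 601 CPM against 800, 830 and 509 CPM, and 16 were lower (median -1.42). Most of each sum came from Meis2 (249 against 262 CPM) and Pde10a (157 against 187 CPM), with log2 fold changes of -0.07 and -0.26. The groups overlapped for every striatal marker. None of either list was at 0 in all libraries. Tac1, a striatal neuropeptide gene, was at 0.626, 1.001 and 3.27 CPM in Npas3+/- and 16.1, 21.1 and 1.73 CPM in WT. Gabrg3, Slc32a1 and both sums were each highest in WT replicate 2. With the striatal marker score as a covariate, Gabrg3 had a log2 fold change of -0.21 and Slc32a1 one of 0.10. Their adjusted p in that edgeR fit was 0.856 and 0.938, and that of Npas3 itself was 0.835. The markers go partly with genotype, so the fit cannot separate the 2. Without WT replicate 2, Gabrg3 stood at -0.39. The part of these markers in the differences was not tested.

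**Figure D5:**
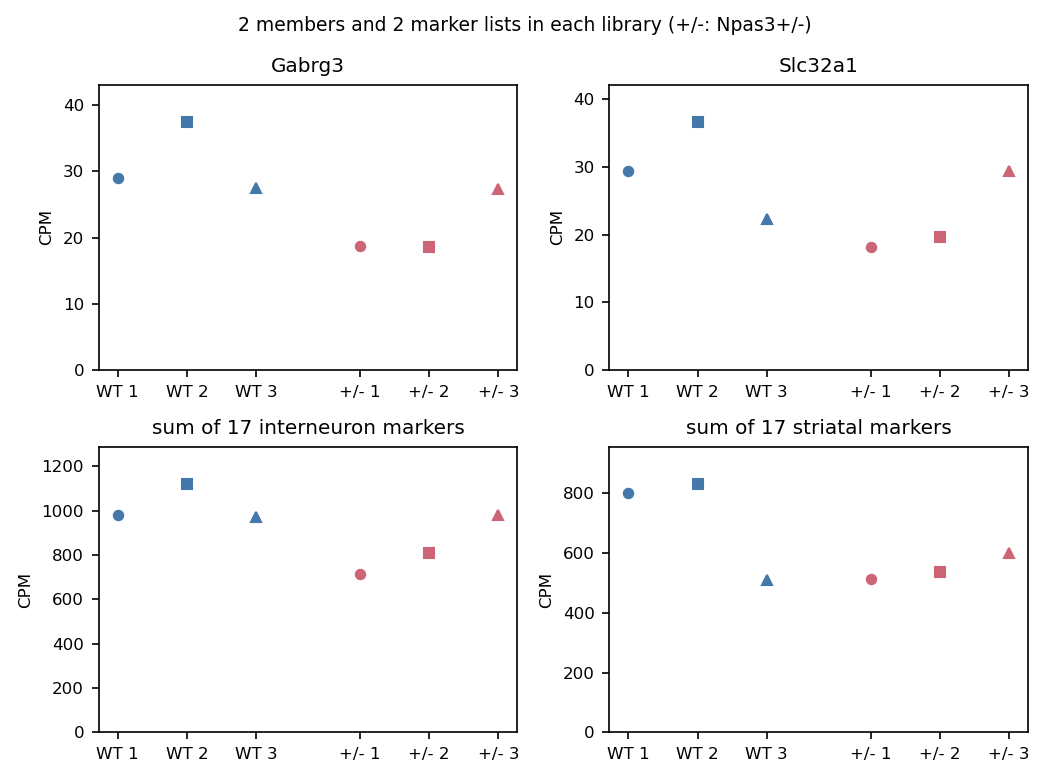
Gabrg3, Slc32a1 and the summed levels of 17 interneuron and 17 striatal markers in CPM, by library (WT in blue, Npas3+/- in red). In all 4 panels WT replicate 2 is highest, and Npas3+/- replicates 1 and 2 lie below replicate 3.

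Glial markers are set beside Slc6a11. The 14 astrocyte and radial glia markers summed to 1488, 1417 and 1672 CPM in Npas3+/- and 1884, 1973 and 1908 CPM in WT, without overlap, and 12 of 14 were lower (median log2 fold change -0.41). Vim (63.0 against 109 CPM) and Fabp7 (298 against 431 CPM) had the smallest p-values of this list (adjusted p = 0.17 and 0.27 in edgeR), and DESeq2 called 4 of the list, against 3.03% of all genes it tested. Their part in the level of Slc6a11 was not tested. None of the 14 was at 0 in all libraries.

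The postsynaptic side gave the smallest p-value among the members. Nlgn2, the neuroligin of inhibitory synapses, which recruits gephyrin and GABA-A receptors, stood at 407, 418 and 411 CPM in Npas3+/- and at 341, 360 and 375 CPM in WT. The 3 Npas3+/- values lay close together and above every WT value. Its means were 412 ± 5.49 and 359 ± 17.1 CPM (SD, n = 3), 115% of the WT level. The log2 fold change of 0.20 (SE 0.05, 95% interval 0.09 to 0.31) did not pass over all genes (adjusted p = 0.276 in edgeR and 0.101 in DESeq2). Transcripts of Nlgn2 are 60.7% GC, and with the GC correction the log2 fold change was 0.11. Gphn, which encodes the scaffold gephyrin, stood at 48.5, 47.6 and 46.6 CPM in Npas3+/- and 53.5, 57.1 and 45.1 CPM in WT. The Npas3+/- values lay inside the WT range (log2 fold change -0.13, SE 0.09, adjusted p = 0.648), and leaving out WT replicate 2 gave -0.05, leaving out WT replicate 3 gave -0.21. Gphn lies on chromosome 12 (78226379 to 78684772), the chromosome of Npas3.

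Other genes of the pathway were read from a separate list, of which 56 of 57 symbols were matched and 53 were tested. None passed in edgeR, and 29 were lower and 24 higher, with a median log2 fold change of -0.02. Unadjusted p-values under 0.05 were found for 6 lower and 3 higher genes of the 53, against 12.1% of all genes tested (1240 lower and 1336 higher). The groups did not overlap for 6 lower and 2 higher genes of the 53, against 9.18% lower and 9.7% higher of all genes tested.

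In GABA synthesis and breakdown, 4 of 5 genes were lower (median -0.44). Gad2, a GABA-synthesizing enzyme, stood at 47.2, 49.9 and 79.1 CPM in Npas3+/- and 101, 122 and 88.2 CPM in WT, without overlap (log2 fold change -0.82, SE 0.21, adjusted p = 0.276 in edgeR). Abat, the GABA transaminase, was at 33.0, 34.2 and 49.7 CPM against 63.2, 80.4 and 43.0 CPM (-0.68, SE 0.24, adjusted p = 0.351). DESeq2 called both (adjusted p = 0.00202 and 0.0436). Of the 53 pathway genes tested it called only these 2, against 3.03% of all genes it tested. With the striatal marker score as a covariate they stood at -0.42 and -0.12 (adjusted p = 0.835 and 0.913 in edgeR), a fit that cannot separate the score from genotype. Without WT replicate 2 Abat stood at -0.45. In both genes Npas3+/- replicate 3 was the highest of its group, as it was for Gabrg3 and Slc32a1.

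Of the genes for receptor trafficking, 8 of 14 were lower, with a median of -0.04. The palmitoyltransferase gene Zdhhc3, whose product modifies gamma subunits, was at 59.6 ± 4.83 CPM in Npas3+/- and 71.7 ± 6.83 CPM in WT (log2 fold change -0.27, SE 0.09). Plcl2, related to a phospholipase C-like protein that binds the receptor, stood at 68.6 ± 5.32 against 78.1 ± 3.17 CPM (-0.19, SE 0.07). Among synaptic adhesion and scaffold partners 8 of 12 were lower with a median of -0.02. The neurexin gene Nrxn3 was at 42.3 ± 3.996 against 60.2 ± 23.1 CPM, with WT replicate 2 at 86.9 CPM (log2 fold change -0.51, or -0.15 without that library), and Nrxn2 at 479 ± 20.3 against 433 ± 38.2 CPM.

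The auxiliary genes of GABA-B receptors had 4 of 7 lower (median -0.12). Kctd16 was at 1.14 ± 0.323 CPM in Npas3+/- and 2.11 ± 0.739 CPM in WT, and Kctd8 at 5.08 ± 1.503 against 6.62 ± 1.99 CPM; their products bind the receptor and shape its kinetics. Without WT replicate 2 the log2 fold change of Kctd16 went from -0.89 to -0.58 and that of Kctd8 from -0.38 to -0.18. For Kctd8 the other replicates left out in turn gave values down to -0.64, without Npas3+/- replicate 1. For the other chloride cotransporters, channels and their kinases, 9 of 13 were higher with a median of 0.08. The chloride channel gene Clcn2 stood at 40.8 ± 2.35 against 35.2 ± 2.04 CPM (log2 fold change 0.21, SE 0.08). The anion exchanger gene Slc4a3 stood at 151 ± 2.75 against 137 ± 5.09 CPM (0.14, SE 0.05). Neither passed the threshold (adjusted p = 0.369 and 0.345 in edgeR). Both were higher without overlap, as were 9.7% of all genes tested, and both were named for the smallest p of their list. With the GC correction Clcn2 stood at 0.12 and Slc4a3 at 0.09. Of the other transporters only the taurine transporter gene Slc6a6 (288 ± 6.68 against 287 ± 1.201 CPM) and the glycine transporter gene Slc6a9 (13.8 ± 1.36 against 14.5 ± 2.14 CPM) were tested.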

How the data were processed

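RNA from P0 cortex was sequenced in 3 Npas3+/- and 3 WT libraries. The submitters' processing notes name HISAT2 2.1.0 and Trimmomatic 0.3.8, with featureCounts and the mm10 build. The authors deposited raw counts per gene. Neither the gene annotation used for counting nor its strand and multi-mapping settings are given in the sources used here. Columns named NP were taken as Npas3+/-, the only genotype besides WT. Gene IDs were matched without version to GENCODE M21, which gave coordinates for 53274 of 53379.

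Counts were filtered with filterByExpr, scaled by TMM and fitted with genotype alone in edgeR 4.0.16 (R 4.3.3; glmQLFit, glmQLFTest), with Benjamini-Hochberg adjustment over 21244 genes and a threshold of 0.05. Each SE was taken as |log2 fold change|/√F. Alternatives used DESeq2 1.42.0, limma-voom (limma 3.58.1), other scalings and filters, a replicate block, a striatal covariate and each library left out. A GC correction (lowess, span 0.4, as offsets) was chosen after seeing the data. The test was checked on simulated counts. Intervals and floors cover counting or sampling error only.

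The members, the pathway list and the marker lists were chosen with earlier results of these data known. All members are named, with the 2 genes of smallest p and at least 1 CPM from each pathway sublist and the 2 of smallest p from marker lists. Xist, Hoxb3, Hoxb5, Prox1, Rora, Zic1, Tcf7l2, Meis2 and Pde10a were named after their values were seen.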

Additional observations from a re-analysis of the deposited data

How the results depend on the processing

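The number of members called was 0 in edgeR and in all 15 alternatives, with adjusted p of 0.0635 or more. Without WT replicate 2 the median log2 fold change of the members was 0.024, and without WT replicate 3 it was -0.0958. Over all genes, DESeq2 called 444 genes, the replicate block 3, and fits without a library between 7 (without Npas3+/- replicate 2) and 16 (without WT replicate 1); why the tools differ was not tested. Libraries with the same number did not deviate together more than other pairs (r of -0.09 to 0.04, against -0.06 to 0.09), and the replicate block called 0 members. With 3 libraries per group, each centred on its group mean, this cannot show whether libraries of the same number shared a litter or batch.

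Of 341 member values under the alternatives, 308 kept their direction and side of the threshold and 33 turned in direction, in 13 members. The cause was not tested. Slc6a9 and Slc6a6, given below, belong to the pathway list and are not in these counts. With limma-voom Gabre stood at -0.36 and Gabrq at -0.35. With the replicate block the log2 fold changes were 0.0114 for Gabrd, -0.28 for Gabre, -0.25 for Gabrq and 0.00376 for Slc12a5. With the striatal covariate they were 0.0752 for Gabra3, 0.57 for Gabrd, -0.0531 for Gabrq, 0.13 for Slc12a5, 0.10 for Slc32a1 and 0.0138 for Slc6a9. With the GC correction they were 0.0339 for Gabra2, 0.11 for Gabrg1 and -0.00374 for Slc6a6, which also stood at -0.00673 with upper-quartile scaling and -0.00183 with a filter of 1 CPM in 3 libraries.

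With a library left out, log2 fold changes ranged from -0.27 to 0.16 for Gabra2, -0.15 to 0.0545 for Gabra3, -0.0635 to 0.14 for Gabra4, -0.13 to 0.0376 for Gabra5, -0.15 to 0.0182 for Gabrb2, -0.25 to 0.14 for Gabrg1 and -0.24 to 0.24 for Gabrd. The ranges were -1.13 to 0.56 for Gabre, -0.84 to 0.55 for Gabrq, -0.0106 to 0.11 for Glrb, -0.11 to 0.13 for Slc12a5, -0.0425 to 0.11 for Slc6a11, -0.16 to 0.0522 for Slc6a9 and -0.00368 to 0.0269 for Slc6a6. Members under 1 CPM are limited by their counts.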
